A study of Homo sapiens with 3 samples.

Results

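The TRAF family comprises the 7 genes TRAF1 to TRAF7, and it was followed here in HEK293T cells that carried an added TRAF7. Members were taken by symbol: the probe sets (groups of probes read as 1 value) whose only gene in the platform annotation is a family member, and the probe set with the highest mean where a gene has several. Of the 22395 genes with a value on the arrays, 6 are members: TRAF1, TRAF3, TRAF4, TRAF5, TRAF6 and TRAF7, each with 1 probe set. The level of TRAF2 was not analysed here. Of these 6 members, 5 had a mean at or above 1.21 on the log2 scale, the median of all gene means, which 11198 genes reach and which is called the filter level below. TRAF1 lay under it.

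TRAF proteins carry signals from receptors of the tumour necrosis factor (TNF) and Toll-like/interleukin-1 families to kinases that switch on NF-kB and the MAP kinases JNK and p38. TRAF1 to TRAF6 share a C-terminal TRAF (MATH) domain that binds receptors and adaptors, and all members but TRAF1 carry a RING finger, the part of an E3 ligase that brings in the ubiquitin-loaded enzyme. TRAF7 has a RING finger but WD40 repeats in place of the TRAF domain. It binds the kinase MEKK3 (MAP3K3), and changes in its WD40 repeats occur in meningioma and in a developmental syndrome.

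HEK293T is a human line of embryonic kidney origin, long established, that expresses the large T antigen of SV40 (the cell line field of the labels spells it HEK239T). The 3 groups were infected with lentivirus and selected in puromycin: cells with the empty pCDF1 vector, cells with pCDF1-TRAF7 wildtype, and cells with the pCDF1-TRAF7 G536S mutant, in which serine replaces a glycine of the WD40 repeats. All were growing in medium with 10% serum, and the empty vector cells went through the same infection and selection. The labels name neither the promoter that drives the construct nor whether a group is a clone or a mixed population, and each group still holds its own TRAF7 gene.

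Each group was measured on 1 Affymetrix array, so the 3 arrays have no replicates. No difference below has a test, a p-value or a standard error, and each holds any difference in culture, extraction or hybridisation besides the one in construct. Values are log2 intensities, and the number of arrays limits their precision. The brightness of a probe set depends on its probes, so levels are compared between arrays for 1 gene and never between genes. Medians over all probe sets were 1.04, 1.02 and 1.01 with the empty vector, wild type and G536S, and the 75th percentiles were 1.73, 1.85 and 1.86, so the empty vector array was lower at that percentile, while its highest value, 12.57, exceeded the 12.38 and 12.14 of the others. Of 7 markers chosen for HEK293T, 5 reached the filter level on average. LIN28B read 5.51, 6.15 and 5.72, VIM 4.34, 5.10 and 4.74, and HMGA2 2.41, 2.74 and 2.57. ENO2 ran from 1.57 to 1.66. KRT18 (1.26, 1.20 and 1.18) was barely at that level and lay below it with both constructs. KRT8 and NEFM were on average below the filter level. None of the 4 measured markers of mature kidney (0.80 to 1.09) or the 3 of endothelium (0.81 to 1.02) reached it. One leukocyte marker, CD79A (1.18 to 1.48), and 1 fibroblast marker, COL1A1 (2.47 to 2.60), did so.

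TRAF7 is the gene that was put into the cells. On the empty vector array its probe set (16815001) read 5.66, on the wild-type array 8.11 and on the G536S array 7.35. Both arrays labelled with a TRAF7 construct were thus above the empty vector array, the wild-type array most. The difference from the empty vector was 5.49-fold with wild type and 3.24-fold with G536S. Among the 11198 genes at the filter level, TRAF7 ranked 2 from the top in the first comparison and 14 from the top in the second; 0.795% of these genes were at least 2-fold higher with wild type and 0.929% with G536S. Against wild type, G536S differed by -0.76, which is 1.69-fold lower and the rank 82 from the bottom, in a comparison where 1.81% of genes were at least 1.5-fold lower. Its range over the arrays was 2.46, and 99.97% of genes at the filter level had a smaller one. Whether the probe set reads the construct, the cell's own transcript or both was not determined, and it cannot tell the wild-type label from the G536S label.

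**Figure D1:**
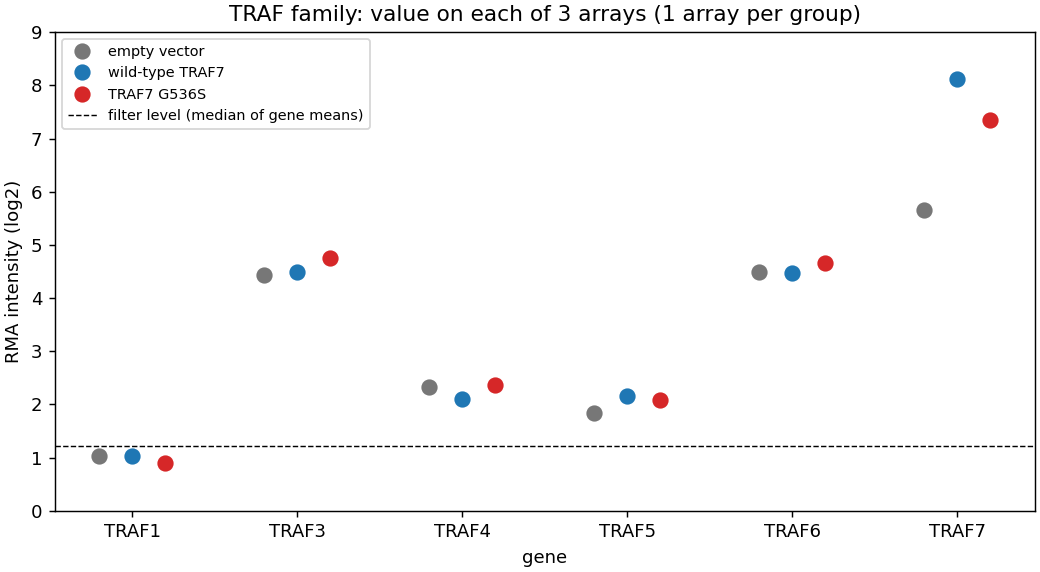
RMA intensity (log2) of the 6 measured TRAF genes on the empty vector (grey), wild-type TRAF7 (blue) and TRAF7 G536S (red) arrays, 1 point per array, with the filter level of 1.21 as a dashed line. TRAF7 runs from 5.66 to 8.11, while the 3 points of each other gene lie within 0.33 of each other; heights compare arrays within a gene, not genes.

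The genes beside TRAF7 on its chromosome were also described, a choice made after the TRAF7 values were seen. In the order of the GRCh38.p14 RefSeq genes, the 5 protein-coding genes on each side that reach the filter level had a median difference of -0.21 with wild type and -0.068 with G536S. Of these 10 genes 0 differed by as much as 1.5-fold, whichever 2 arrays were compared. Among all genes at the filter level 7.22% did so with wild type, 8.15% with G536S and 3.98% between the constructs. A count of 0 of 10 is thus near the background. TSC2, a brake on mTORC1 signalling, was at 5.33 in empty vector cells, 4.89 in wild-type cells and 4.82 in G536S cells, and NTHL1, a base excision repair enzyme, read 3.48, 2.94 and 3.03. MLST8, a subunit of mTOR complexes, read 7.53, 7.36 and 7.65, and CASKIN1 read 1.24, 1.38 and 1.52. The high TRAF7 values were therefore not shared by its neighbours, of which 2 of 10 were above the empty vector array with wild type and 4 of 10 with G536S, where 62.6% and 63.9% of all genes at the filter level were above it. With quantile normalization, and likewise with cyclic loess, 1 neighbour (NTHL1) was 1.5-fold lower with wild type and 2 (NTHL1 and TSC2) with G536S.

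No other measured TRAF gene was 1.5-fold apart in any comparison. That is 0 of the 4 at the filter level each time, and TRAF1 below it was not apart either, where 7.22% of all genes at the filter level were at least 1.5-fold apart, in either direction, when wild type was set against the empty vector. The share was 8.15% for the mutant against the empty vector and 3.98% for the mutant against wild type. With 4 genes and shares this small, a count of 0 is near the background. The median difference of all 5 measured genes was 0.0038 with wild type, 0.16 with G536S and 0.19 for G536S minus wild type. Over all genes at the filter level the medians were 0.082, 0.096 and 0.0069, and over all 22395 genes -0.00075, -0.0047 and -0.0033. The largest difference of any of the 5 was 1.25-fold.

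TRAF3, which holds back the kinase NIK and so the non-canonical NF-kB pathway and also serves interferon induction, had its highest value with G536S. The readings of its probe set (16789080) were 4.44 for the empty vector, 4.50 for wild type and 4.76 for G536S. The empty vector and wild-type values were close, and the G536S value stood 0.32 and 0.27 above them. Of all genes at the filter level, 70.7% differed by less between G536S and the empty vector, so a difference of this size was common on these arrays. The small excess of wild type over the empty vector (0.056) changed sign after quantile normalization and cyclic loess, while both G536S differences kept theirs.

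Because NF-kB factors act on the promoters of several of the pathway's own genes, the windows around the annotated starts of the family were searched for 1 form of the NF-kB site, GGGNNNTTCC, on both strands (its reverse is GGAANNNCCC). Windows ran from 250 bases before to 50 after a start and came from RefSeq (GRCh38.p14). All 7 genes had at least 1, and 1 of their 11 windows held the letters, against 6.52% of all 35116 windows. That window is the one of TRAF3, where the match begins 33 bases before the start. The 100 bases before the start, chr14:102777349-102777448 on the plus strand, are shown with the match in capitals, as the place in the family where these letters occur:
TRAF3: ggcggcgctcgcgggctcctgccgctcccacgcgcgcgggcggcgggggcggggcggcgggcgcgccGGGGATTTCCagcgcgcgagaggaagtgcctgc
A match is a run of letters and not a shown binding site. The arrays carry no measurement of factor binding, and the windows without a match say nothing of the factor.

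TRAF6, the ligase that works downstream of Toll-like and interleukin-1 receptors, was at 4.50 in empty vector cells, 4.46 in wild-type cells and 4.65 in G536S cells (probe set 16737401). G536S was again the highest of the arrays, by 0.16 over the empty vector and 0.19 over wild type; the first became 0.0073 with quantile normalization and 0.023 with cyclic loess. Its range over the 3 arrays was 0.19, and 26.9% of genes at the filter level had a smaller one. TRAF6 was among the steadier genes on these arrays.

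TRAF4, a member studied in cell polarity and migration and in breast cancer, was lowest with wild type. The readings of its probe set (16832588) were 2.33 for the empty vector, 2.10 for wild type and 2.36 for G536S. The difference of wild type from the empty vector was -0.23, and 12.3% of genes lay lower in that comparison. G536S exceeded wild type by 0.26 and was within 0.031 of the empty vector, a difference whose sign turned after quantile normalization and cyclic loess. TRAF4 and TRAF6 (-0.032) were the members lower with wild type than with the empty vector. Each has 1 probe set, so only quantile normalization, median centring and cyclic loess could change its value. With these TRAF4 ran from -0.37 to -0.21 and TRAF6 from -0.15 to -0.0061, the last close to no difference.

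TRAF5, a partner of TRAF2 at CD40 and related receptors, was lowest with the empty vector. Across the empty vector, wild-type and G536S arrays its probe set (16677133) read 1.84, 2.16 and 2.09. Both construct arrays were above the empty vector array, by 0.32 (1.25-fold) and 0.25, and they were close to each other. With quantile normalization these differences became 0.19 and 0.10. Of genes at the filter level, 80.8% lay below TRAF5 in the wild-type comparison and 71.2% in the G536S comparison, so TRAF5 stood on the high side without being rare. Both comparisons share the empty vector array.

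The chromosomal neighbours of TRAF5 differed by about as much as TRAF5 did. The 10 protein-coding genes around it had a median difference of 0.28 with wild type and 0.23 with G536S, and 9 and 8 of them were above the empty vector array, as were 62.6% and 63.9% of all genes at the filter level. SLC30A1, a zinc exporter next to TRAF5, read 2.74, 3.27 and 3.37, and DTL, a substrate receptor of a CUL4 ligase, read 7.88, 8.21 and 8.12. The other side gave SERTAD4 at 1.71, 2.37 and 2.05 and RCOR3 at 3.63, 3.54 and 3.52, so 1 close neighbour was not higher. The neighbours of TRAF6 had medians of 0.30 and 0.22, although TRAF6 itself differed by -0.032 and 0.16. Those of TRAF3 had medians of 0.0036 and 0.080 and those of TRAF4 of -0.062 and -0.016, with 5 and 4 of 10 genes above 0 in the wild-type comparison. Beside TRAF3, CINP was higher (0.74 and 0.75) and TRMT61A lower (-0.77 and -0.76). Past 1.5-fold around TRAF3, TRAF4, TRAF5 and TRAF6 were 2, 0, 1 and 2 of 10 genes with wild type. With G536S they were 2, 1, 1 and 0, against 7.22% and 8.15% of all genes at the filter level. Over the settings tried the medians around TRAF5 and TRAF6 stayed above 0, between 0.15 and 0.31 for TRAF5 with wild type and between 0.078 and 0.26 with G536S.

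**Figure D2:**
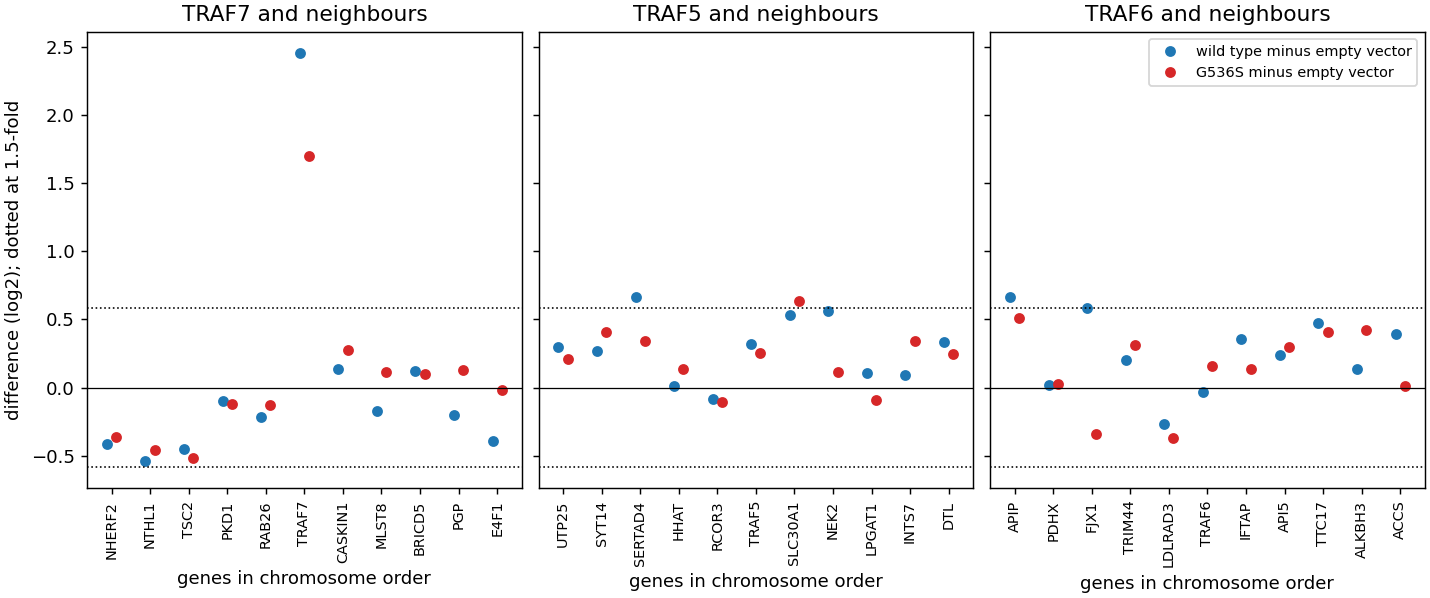
Log2 difference from the empty vector array with wild-type TRAF7 (blue) and TRAF7 G536S (red) for TRAF7, TRAF5 and TRAF6 and the 5 protein-coding genes on each side, in chromosome order, with dotted lines at 1.5-fold. TRAF7 stands alone at 2.46 and 1.70 among neighbours with medians of -0.21 and -0.068, while TRAF5 (0.32 and 0.25) sits near its neighbours' medians of 0.28 and 0.23.

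TRAF1, which lacks a RING finger and is itself a well-known NF-kB target gene in immune cells, was near background on all arrays. Its probe set (17097941) gave 1.02 for both the empty vector and wild type and 0.90 for G536S. All values are below the filter level of 1.21, where differences are compressed. No TRAF1 signal beyond that level was detectable with any construct.

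**Figure D3:**
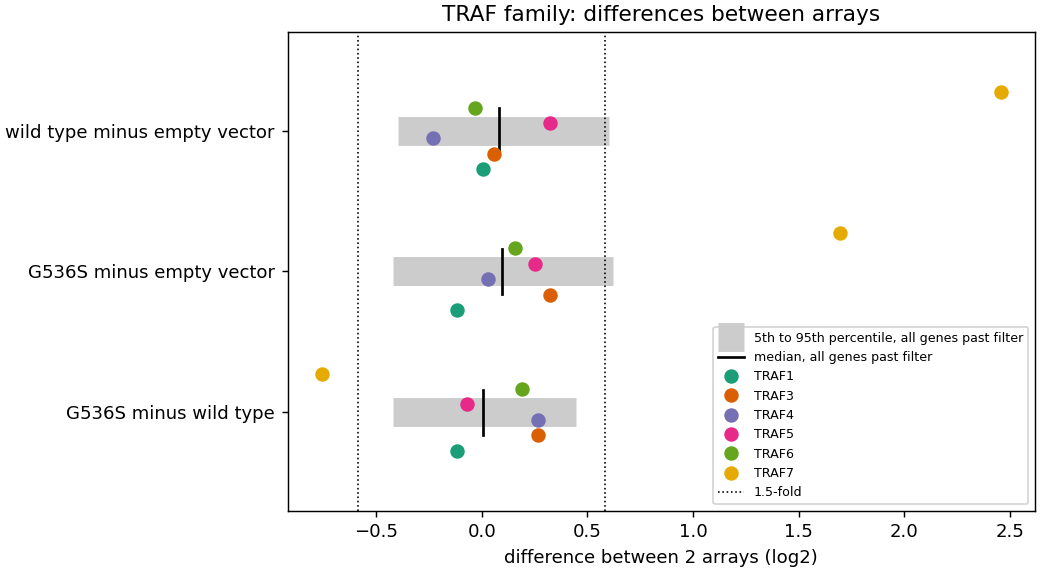
Log2 difference between pairs of arrays for the 6 measured TRAF genes (coloured points), with the 5th to 95th percentile (grey bar) and the median (black tick) of the 11198 genes at the filter level and dotted lines at 1.5-fold. TRAF7 lies outside the grey bar in all 3 comparisons (2.46, 1.70 and -0.76) and the other 5 members lie inside it.

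The genes that TRAF proteins work with were then described by role, in 6 lists with 105 genes. Of these 93 were measured and 60 reached the filter level. Among those 60, 2 were at least 1.5-fold higher with wild type (TNFRSF12A and TIFA) and 0 lower, against 5.42% and 1.79% of all genes. With G536S 1 was higher (TNFRSF12A) and 0 lower, against 6.07% and 2.08%. For G536S minus wild type 1 was higher (EDA2R) and 1 lower (TNFRSF12A), against 2.17% and 1.81%. These shares are near or below those of all genes.

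Among receptors that recruit TRAFs, 21 of 23 were measured and 7 reached the filter level, so most TNF receptors of lymphocytes and other tissues were at background. TNFRSF12A, the receptor for TWEAK, was at 3.01 in empty vector cells, 5.19 in wild-type cells and 3.63 in G536S cells. The wild-type value stood apart from the others, 2.18 above the empty vector, and G536S minus wild type was -1.56. The 0.62 by which G536S exceeded the empty vector fell short of 1.5-fold in 2 of 9 settings. EDA2R, a receptor for ectodysplasin A2, read 2.05, 1.97 and 2.64, and its difference between G536S and wild type (0.66) passed 1.5-fold; that between G536S and the empty vector (0.58) lay just under and passed with median centring alone. CD40, a receptor that uses several TRAFs, read 2.16, 1.98 and 2.15, and TNFRSF11A, the receptor for RANKL, read 1.94, 1.81 and 1.81. The median difference of the 21 receptors, most of them at background, was -0.019 with wild type, -0.046 with G536S and -0.030 between the constructs. Over the 7 at the filter level it was -0.077, -0.013 and -0.011.

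Among adaptors and bridging proteins, 13 of 15 were measured and 12 reached the filter level. TIFA, which binds TRAF6 and promotes its oligomerisation, was at 1.17 in empty vector cells, 1.80 in wild-type cells and 1.59 in G536S cells. Its 0.63 with wild type is just past 1.5-fold and fell to 0.57 after cyclic loess; its empty vector value is below the filter level. IRAK1, the kinase that hands the interleukin-1 signal to TRAF6, read 4.92, 4.54 and 4.71. The adaptor MYD88 read 1.53, 1.51 and 1.29, and TRADD, the adaptor of TNF receptor 1, differed by -0.26 with wild type and 0.20 between the constructs, both close to background in level. The list medians were 0.027, 0.037 and -0.077 in the order of comparisons above, with 7, 7 and 6 of 13 members above 0. For all genes at the filter level the shares above 0 were 62.6%, 63.9% and 51.4%. The wild-type and G536S medians of the list turned negative with quantile normalization and with cyclic loess.

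Of kinases downstream of TRAFs, 14 of 15 were measured, 12 reached the filter level and 0 were 1.5-fold apart. Over all genes at that level the shares were 7.22%, 8.15% and 3.98% in the order of comparisons above. For 12 genes a count of 0 is near the background. MAP3K3 (MEKK3), the kinase that TRAF7 binds, was at 3.74 in empty vector cells, 3.55 in wild-type cells and 3.81 in G536S cells, a difference of -0.19 for wild type and 0.071 for G536S. CHUK, a kinase that acts in the non-canonical NF-kB pathway among others, read 3.32, 3.84 and 3.72. Its differences were the highest of the list with both constructs (0.52 and 0.40). Over the settings tried they ran from 0.37 to 0.55 with wild type and from 0.24 to 0.43 with G536S. MAP3K7 (TAK1), which TRAF6-built ubiquitin chains activate, read 5.86, 5.83 and 6.12. MAP3K5 (ASK1) read 3.53, 3.89 and 3.46, and IKBKE read 1.54, 1.39 and 1.27. The list medians were 0.10, 0.029 and -0.088.

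The ubiquitin partners of TRAFs included the E2 enzymes, the inhibitor of apoptosis ligases and the deubiquitinases that trim their chains. Of 25, 19 were measured and 18 reached the filter level, with 0 at least 1.5-fold apart. This is near the background for 18 genes, as 7.22%, 8.15% and 3.98% of all genes at the filter level were apart. CYLD, a deubiquitinase that removes linear and K63-linked chains, was at 2.83 in empty vector cells, 3.36 in wild-type cells and 2.79 in G536S cells. Its wild-type value stood 0.54 above the empty vector and 0.57 above G536S, both just short of 1.5-fold. Over the settings tried, wild type minus empty vector ran from 0.38 to 0.56 for CYLD and G536S minus wild type from -0.58 to -0.56. OTUD7B, which removes chains from TRAF3, read 3.08, 3.64 and 3.31. BIRC2 (cIAP1), which is recruited through TRAF2, read 2.03, 2.42 and 2.47, and the deubiquitinase USP2 read 2.68, 2.48 and 2.16. Its difference with G536S, -0.52, passed 1.5-fold in 2 of 8 settings. USP4 read 3.59, 3.64 and 3.80. The list medians were 0.14, -0.0073 and -0.031, with 14, 9 and 7 of 19 members above 0. Over all genes at the filter level the shares above 0 were 62.6%, 63.9% and 51.4%. Over the 18 list members at that level the medians were 0.16, 0.057 and -0.029, so the sign with G536S depended on the filter. The wild-type and G536S medians of all 19 were lower with quantile normalization and with cyclic loess.

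The TRAF fold also occurs in proteins outside the family. All 6 other MATH domain proteins were measured, 4 reached the filter level and 0 were 1.5-fold apart. With 4 genes that is near the background shares of 7.22%, 8.15% and 3.98%. USP7, the deubiquitinase that acts on MDM2 and p53, read 6.80, 6.92 and 7.02. TRIM37, a centrosomal ligase, read 6.60, 6.54 and 6.45, SPOP, a cullin adaptor, read 2.80, 2.62 and 2.82, and SPOPL read 2.13, 2.27 and 2.24. The list medians were 0.00099, 0.0023 and -0.0069, with MEP1A and MEP1B, which lie under the filter level, included. Over the 4 genes that reach it the medians were 0.028, 0.060 and 0.032.

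The list called NF-kB output genes also holds inhibitors and subunits of NF-kB itself, NFKBIB and REL among them. Of 23, 21 were measured, 7 reached the filter level and 0 were 1.5-fold apart in any comparison. Over all genes at the filter level the shares were 7.22%, 8.15% and 3.98%. With 7 genes a count of 0 is near the background and says little about NF-kB output. NFKBIA, the inhibitor that NF-kB induces against itself, was at 3.21 in empty vector cells, 3.50 in wild-type cells and 3.62 in G536S cells, below 1.5-fold each time. NFKBIB, a related inhibitor, read 4.05, 4.14 and 3.70, REL, an NF-kB subunit, read 4.55, 4.32 and 4.50, and IER3 read 1.69, 1.45 and 1.40. IER3 has 10 probe sets; over their mean its difference from the empty vector with G536S went from -0.29 to -0.073 and that from wild type turned from -0.046 to 0.086. The 14 other measured genes, chemokines and cytokines such as CXCL8 and IL6 among them, were under the filter level, so a small difference in them was not detectable. The list medians were -0.031, -0.089 and -0.058 and so rest mostly on genes near background. Over the 7 at the filter level they were 0.056, -0.051 and -0.058.

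**Figure D4:**
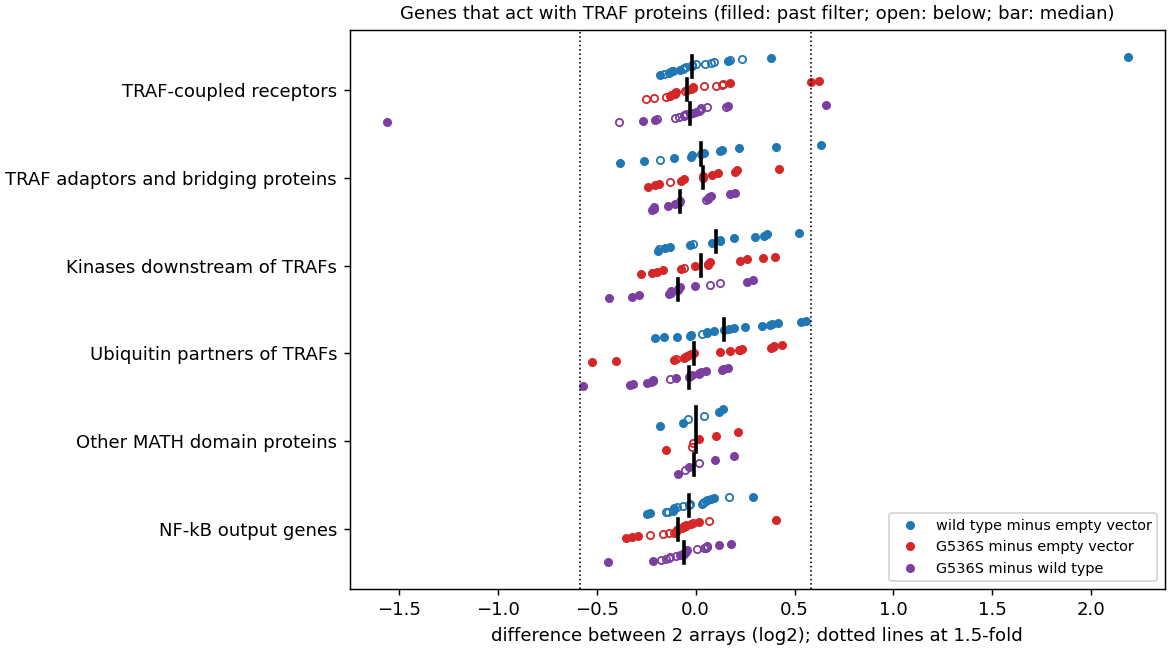
Log2 difference between pairs of arrays for the 93 measured genes of 6 lists that act with TRAF proteins (filled points reach the filter level, open points do not, black bars are list medians, dotted lines 1.5-fold). TNFRSF12A is the point at 2.18 and -1.56 among the receptors; TIFA (0.63) and EDA2R (0.66) are the other genes past 1.5-fold.

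Genes whose 3 values followed those of TRAF7 most closely were found by the distance over the 3 arrays between values taken relative to each gene's own mean. With 3 arrays this is a description, and it favours genes with large differences. Among 10083 protein-coding genes at the filter level, the nearest 5 were FAM72D, TC2N, ANO5, VAMP4 and ID4, at distances from 0.53 to 0.75, where the median gene was at 1.72. TC2N, a protein with C2 domains, was at 3.55 in empty vector cells, 5.28 in wild-type cells and 4.67 in G536S cells, the same order as TRAF7. VAMP4, a SNARE protein, read 1.80, 3.23 and 2.79, and FAM72D, which shares sequence with other FAM72 copies, read 1.80, 3.51 and 3.10. ANO5, an anoctamin, read 2.86, 4.46 and 4.29. ID4, which blocks DNA binding by basic helix-loop-helix partners, read 1.93, 3.42 and 3.53 and so had G536S and not wild type on top. The other measured TRAF genes could not be among them, given their small ranges over the arrays, so their absence adds no result.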

How the data were processed

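Expression was measured on 3 Affymetrix arrays, 1 for each group, from 300 ng of total RNA per the labels' protocols. The authors deposited 1 log2 value per probe set made with RMA (background correction, normalization between arrays and probe summary), as the submitters' processing notes, per the labels, name it; its version and the array's build were not given in the sources used here. Base 2 was inferred: the highest value, 12.57, exceeds 11.09, the natural log of a 16-bit scanner's top. Of 53617 probe sets, 23871 name 1 gene, 1842 several and 27904 are unnamed here. Symbols were updated by Entrez ID through RefSeq (GRCh38.p14). A gene took its probe set with the highest mean. A difference is one array minus another. Fold counts used genes at or above the median gene mean. Medians of the family and the lists used all measured members, except where given over those at the filter level. Fold counting was tested on simulated data.

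Members and lists were chosen with earlier results of these data known. From each list the text names genes past 1.5-fold and the highest and lowest in each comparison at the filter level, plus the 5 genes most like TRAF7; neighbours, and other genes singled out, were chosen after their values were seen. Alternatives were the mean of probe sets, probe sets naming several genes, no filter or a 75th percentile filter (2.87), quantile normalization, median centring, cyclic loess and a floor at 0.86. A planned comparison of the family's proteins was not made. Python 3.11.15, pandas 2.3.3, R 4.3.3 and limma 3.58.1 were used.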

Additional observations from a re-analysis of the deposited data

How the results depend on the processing

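No paired analysis was possible because each group has 1 array, and for the same reason no array could be left out. TRAF7 kept its direction and stayed past 1.5-fold in all 3 comparisons under the 8 alternatives, from 2.36 to 2.48 for wild type, from 1.52 to 1.73 for G536S and from -0.85 to -0.75 between the constructs. Its G536S difference of 1.70 became 1.52 with quantile normalization and 1.57 with cyclic loess. The median of the 5 other TRAF genes with G536S, 0.16, became 0.0073 and 0.023 under the same settings. None of these 5 passed 1.5-fold under any alternative. Each measured TRAF gene has 1 probe set, so only quantile normalization, median centring and cyclic loess could change the value of a member. The other alternatives returned the same value by design. List members past 1.5-fold with wild type went from 2 to 1 with the 75th percentile filter and with cyclic loess; those with G536S went from 1 to 2 when probe sets naming several genes were used and with median centring; those between the constructs went from 2 to 1 with the 75th percentile filter. Quantile normalization moved the median gene at the filter level by -0.11 for wild type and -0.13 for G536S. Of genes past 1.5-fold, 75.1% were higher with wild type as deposited, 47.5% once quantile normalized and 51.3% with cyclic loess, and for G536S 74.5%, 41.5% and 46.8%. The cause was not tested. Signal over background limits TRAF1 and the 33 list members under the filter level.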
